A study of Anguilla anguilla with 3 samples.

Results

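The histone genes of the European eel (Anguilla anguilla) ovary were taken as the rows of a gene expression table whose description begins with histone H1 to H5, with or without the word core in front. The rule found 49 of the 45974 predicted genes in the table. Of these, 45 are named for a histone protein: 7 linker histones H1, 10 H2A, 10 H2B, 8 H3 and 10 H4. The other 4 rows are proteins whose description only starts with a histone name, namely 2 rows of hinfp, a transcription factor of histone H4 genes in mammals, and 2 rows of mysm1, an enzyme that removes ubiquitin from histone H2A. No row was described as H5. The rule also passed over 20 histone rows whose descriptions are written otherwise, most of them variants, and these are given separately below.

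The study measured ovary RNA of 3 female life stages, with 1 library from 1 eel at each stage. The yellow eel, the feeding stage before migration, came from Lake Veerse in spring. The prepubertal silver eel came from Lake Grevelingen in December, and the matured eel was sampled after spawning and came from Lake Veerse in spring. For each eel, 3 parts of the gonad were pooled and 10 micrograms of total RNA went into an Illumina mRNA library. No treatment and no age is given in the labels. They do not say whether the matured eel was matured artificially, and any such treatment could not be told apart from stage. Lake and season differed between the silver eel and the others, and neither can be told apart from stage.

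Histones package DNA. Pairs of H2A, H2B, H3 and H4 form the core of the nucleosome, and a linker histone, H1, sits where DNA enters and leaves it. In most animal cells the bulk of histone mRNA is made while DNA is copied, and these transcripts end in a stem-loop in place of a poly(A) tail, whereas variants used outside replication, such as H3.3, H2A.Z and H1x, have tailed transcripts. Growing oocytes of fish and frogs are known for storing histones and their mRNAs for the first divisions of the embryo. Kits for mRNA libraries usually select tailed RNA. How much of each histone transcript was retained in these libraries was not measured, so levels below are those of the transcripts that reached the library.

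Levels are given in CPM, the usual count of reads scaled to a common library size, here with TMM factors. CPM and its sums are not corrected for transcript length. Where stated, genes and classes are compared in CPM per kilobase of the longest transcript. With 1 eel per stage there is no test of the stages. Each fold stands with a 95% interval that covers counting error in the libraries and no difference between animals. A row is said to be called where the higher of both libraries reached 10 CPM and the difference was at least 4-fold after adding 1 CPM to each. The libraries held 27811764 (yellow), 41426808 (silver) and 30137882 (matured) reads, and a count of 0 allows up to 0.113, 0.0795 and 0.0867 CPM in them. In bulk tissue, fewer cells of a type and less RNA per cell cannot be told apart. The ovary label was met by the markers checked: 16 rows named zp2, zp3, gdf9, bmp15, zar1 and foxl2 summed to 50994, 36016 and 36210.3 CPM in yellow, silver and matured, with 1 foxl2 row at 0 reads in matured. Leukocyte marker rows summed to 4.85, 13.4 and 114.95 CPM in the same order, with 1 csf1r row at 0 reads in all libraries. The 8 of these 11 rows that averaged at least 1 CPM were all called higher in matured than in silver and than in yellow. By the same rule 2.23% and 3.39% of all genes were. None of the leukocyte rows reached 10 CPM in yellow or silver, so a call could only be higher in matured. Erythrocyte marker rows summed to 4.55, 15.6 and 14.4 CPM. The part of these marker shifts in the histone values was not tested.

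Histone protein transcripts together were most abundant in the silver ovary and least abundant in the matured one. The 45 rows summed to 5165 CPM in yellow, 7347 in silver and 2529 in matured, which is 0.494%, 0.669% and 0.290% of all reads. The silver sum was 1.42-fold higher (1.41 to 1.43) than the yellow one. In the matured library it was 2.91-fold lower (2.88 to 2.93) than in the silver and 2.04-fold lower (2.03 to 2.06) than in the yellow library. In CPM, which is not corrected for length, the silver excess rested on 3 rows, the H2A row g1631, the H2B row g1632 and the linker row g32. Without them the other 42 rows summed to 599.7 CPM in silver against 602 in yellow, a ratio of 0.996 (0.976 to 1.02), and to 208 CPM in matured. Per kilobase a silver excess remained in the 42 rows, at 1455 CPM in silver against 1183 in yellow. Their CPM ratio joined classes that differed. The H4 sum was 2.70-fold higher in silver than in yellow. The other class sums without the 3 rows were lower in silver, from 1.08-fold for H2B to 2.30-fold for H1. The lower matured sum did not rest on g1631, g1632 and g32. Without them it was still 2.88-fold lower (2.80 to 2.96) than in the silver library and 2.89-fold lower (2.81 to 2.97) than in the yellow library.

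**Figure D1:**
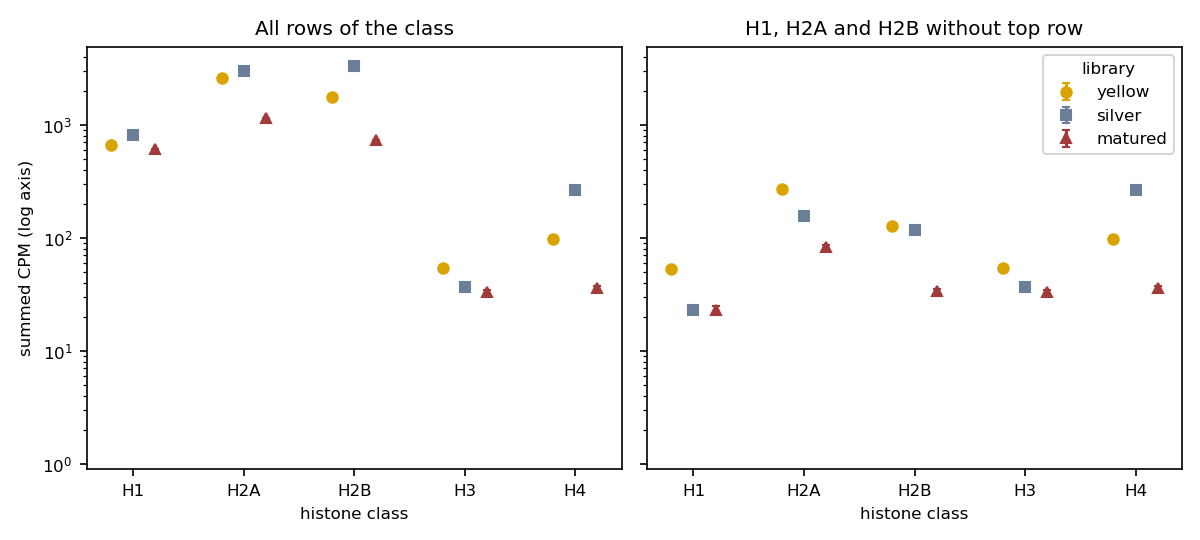
Summed CPM (log axis) of the histone rows of each class in the yellow, silver and matured libraries, left for all rows and right with H1, H2A and H2B shown without their most abundant row. Bars are exact 95% Poisson intervals, mostly smaller than the symbols; heights are not corrected for transcript length. The matured symbol is lowest in every class on the left, a direction that turns with library totals alone for H3 against silver and for H1 against yellow, and the H4 sum peaks in silver at 266 CPM.

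Set per kilobase among the rows of the rule, H2A and H2B transcripts led in all 3 libraries and the rows named H3 came last. Rows passed over by the rule are not in these sums. In the yellow library the class sums were 2485 CPM per kilobase for H2A, 1994 for H2B, 506 for H1, 286 for H4 and 71.8 for H3. Silver values were 3421 for H2B, 2777 for H2A, 809 for H4, 619 for H1 and 47.9 for H3. In that library H2B stood above H2A and H4 above H1. The place of H4 above H1 rested on the row g44494 of 204 bases, which supplied 602 of the 809 CPM per kilobase. In the matured library H2A had 1075, H2B 767, H1 458, H4 69.96 and H3 44.1 CPM per kilobase. A single row supplied most reads in 3 classes. It held 91.9% to 97.2% of the H1 reads, 89.6% to 94.7% of the H2A reads and 92.8% to 96.4% of the H2B reads over the libraries. The top H3 row held at most 39.8% and the top H4 row at most 46.2% of the reads of its class, shares not corrected for length.

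Most histone rows had modest levels. Of the 49 rows, 43 averaged at least 1 CPM over the libraries, 28 reached 10 CPM in at least 1 library, and 21 did not and could not be called. Of the histone proteins 25 rows reached it, and the others ranged from 0 to 9.40 CPM. Of the 45 histone rows, 22 were highest in the silver library, 18 ran downward from yellow over silver to matured, 3 were highest in yellow and lowest in silver, and 2 were highest in matured. The matured value lay below the yellow value in 39 rows and below the silver value in 40. These counts take in 6 rows averaging under 1 CPM, and the orders were not counted over all genes. Among the 39 rows with at least 1 CPM, 19 were higher in silver than in yellow and 20 were lower. Matured was below yellow in 35 of them and below silver in 34. Of 24571 genes with that level, 12866 and 12598 were.

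**Figure D2:**
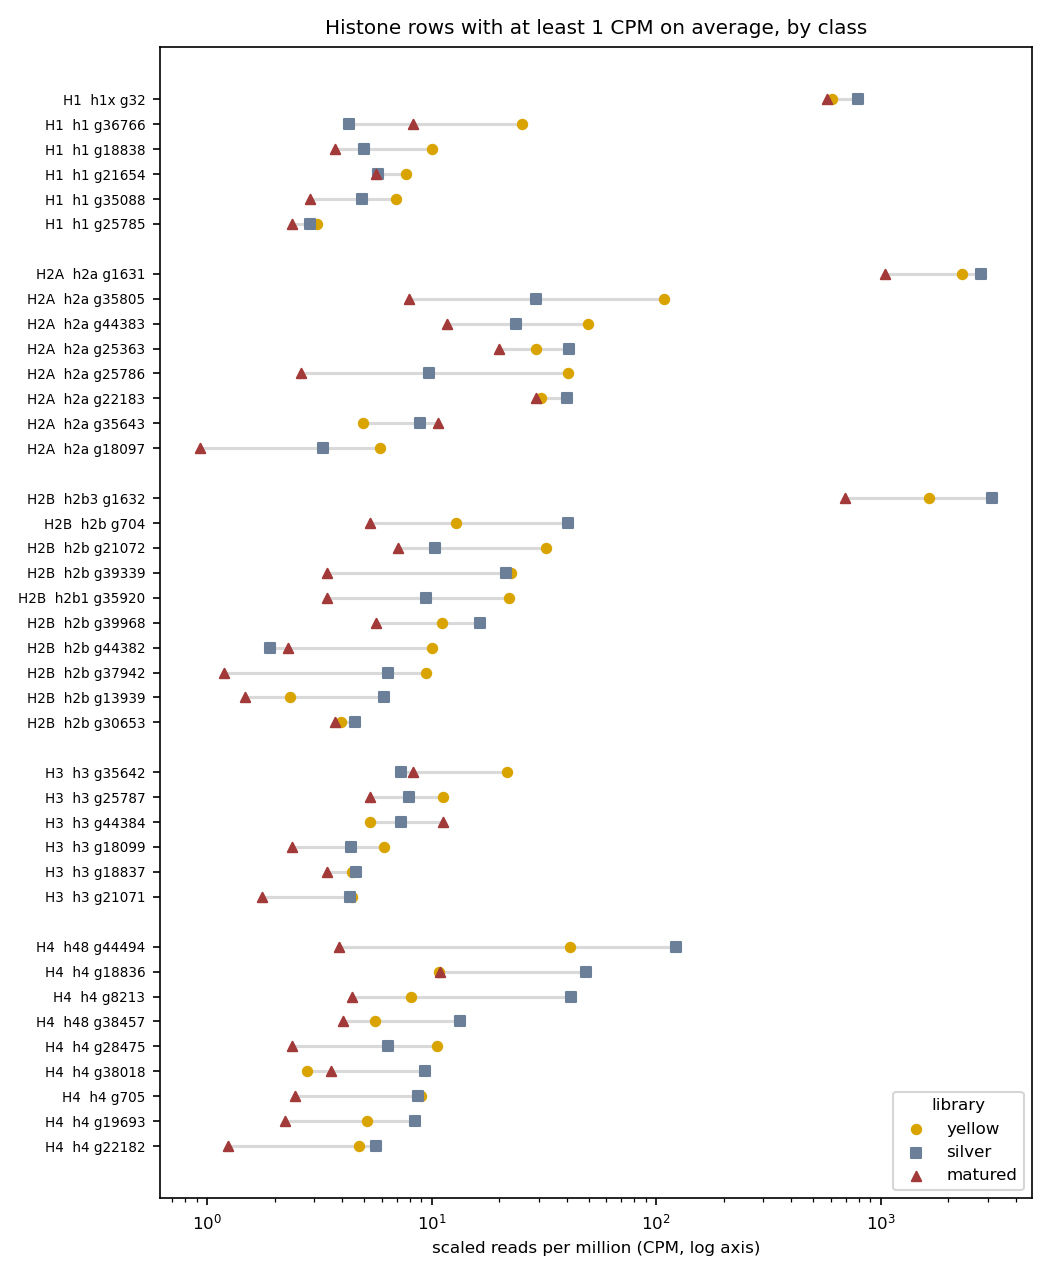
CPM (log axis) of the 39 histone rows with at least 1 CPM on average, grouped by class, with yellow circles, blue-grey squares and red triangles for the yellow, silver and matured libraries. The matured triangle lies at the left end of most rows; the rows h2a g35643 and h3 g44384, at 10.7 and 11.2 CPM, are the ones in which it lies at the right end.

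Between the silver and the yellow library, histone rows differed in both directions and few differences were large. Rows of H4 were mostly higher in silver, while the rows with the lowest ratios were of H1, H2A and H2B. In this comparison 26 rows could be called, 23 of them histone proteins. Of the 26, 2 were called higher, the H4 rows g8213 and g18836, where 3.69% of 12462 genes were called higher by the same rule. One was called lower, the H1 row g36766, where 1.43% of genes were. The median log2 ratio over the 43 rows with at least 1 CPM was -0.04, with 20 above 0, and that of all 24571 such genes was 0.01. The 43 rows take in those of hinfp and mysm1, and the median of the 39 histone protein rows was -0.03. The H4 median was 1.13 over 9 rows, with 7 above 0, and the other medians were -0.40 for H1, -0.21 for H2A, 0.05 for H2B and -0.22 for H3. The H2B median became -0.02 with library totals alone. The difference between classes was not tested. In the authors' deposited table, 0 of the 49 rows had an adjusted p under 0.1 here, as 0.103% of genes did in the higher and 0.0671% in the lower direction.

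Against the silver library, the matured library had lower levels in most histone rows and higher levels in few. Here 20 rows could be called, 17 of them histone proteins. Of the 20, 6 were called lower, 3 of H2B (g1632, g704 and g39339) and 3 of H4 (g44494, g8213 and g18836), beside 4.61% of 12573 genes. None was called higher, beside 2.23% of genes. The median log2 ratio was -0.96 over the 43 rows, hinfp and mysm1 among them, and -1.13 over the 39 histone protein rows, against -0.03 over all genes. All 9 H4 rows with at least 1 CPM lay below 0 with a median of -1.54. H2B had a median of -1.46, H2A of -1.08, H3 of -0.43 and H1 of -0.27. Scaling by library totals alone moved the median of all genes to 0.25, that of the 43 rows to -0.67 and that of H1 to -0.01. It left 4 rows called lower, without g1632 and g18836. With the authors' adjusted p, 1 of 49 rows passed 0.1 in the deposited table, the h48 row g44494, with a matured to silver ratio of 0.0305 and an adjusted p of 0.0243, where 0.126% of genes passed in the lower and 0.113% in the higher direction.

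Compared with the yellow library, the matured library was again lower in most histone rows. Again 26 rows could be called, 23 of them histone proteins. Of the 26, 6 were called lower, the H2A rows g35805 and g25786, the H2B rows g39339, g35920 and g21072, and g44494 of H4, beside 2.59% of 12553 genes. None was called higher, beside 3.39% of genes. The rows g39339 and g44494 are the 2 called lower against both other libraries, and both comparisons use the same matured library. The overlap of these calls over all genes was not counted, so the overlap is not read as a result. The median log2 ratio was -0.98 over the 43 rows, -1.08 over the 39 histone protein rows and -0.05 over all genes. By class it was -1.50 for H2B, -1.49 for H2A, -0.97 for H3, -0.93 for H4 and -0.71 for H1. No row had an adjusted p under 0.1 in the authors' deposited table, of 48 with a value, the lowest being 0.132 for g35805 at a matured to yellow ratio of 0.0718; among all genes 0.202% passed in the higher and 0.13% in the lower direction.

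**Figure D3:**
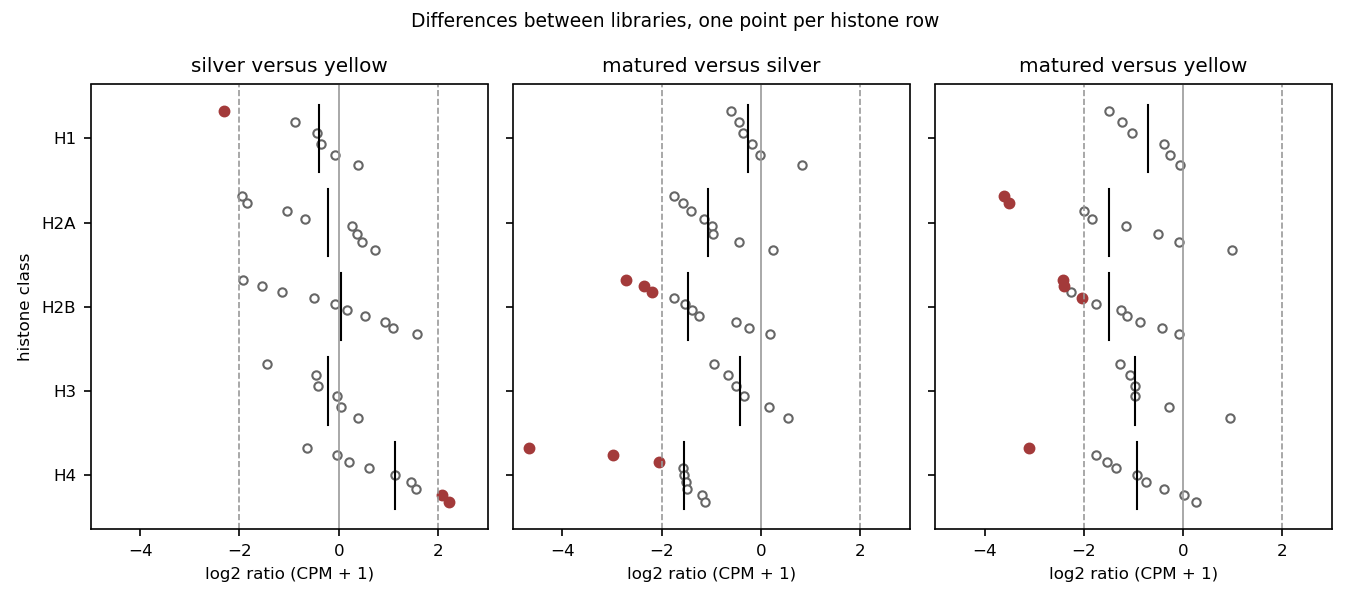
Log2 ratio of CPM + 1 for each histone row with at least 1 CPM on average, by class, in silver versus yellow, matured versus silver and matured versus yellow. Filled points are called rows, dashed lines mark 4-fold and short black lines the class medians. H4 points lie mostly right of 0 in the first panel and all left of 0 in the second.

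Among the linker histone rows of the rule, g32 led, named h1x, a replication-independent H1 in mammals. The linker row g1568, passed over by the rule and given below, was more abundant in each library. Row g32 had 606 CPM in yellow, 793 in silver and 579.97 in matured. The silver library was highest, 1.31-fold above yellow (1.28 to 1.33), and matured was 1.37-fold lower (1.34 to 1.39) than silver. Its matured value was 1.04-fold lower (1.02 to 1.07) than the yellow one, a direction that turned with library totals alone (log2 0.20) and with the authors' RPKM (0.20).

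The other H1 rows were all named for a trout H1, and 5 of these 6 were highest in yellow. Row g36766 had 25.3 CPM in yellow, 4.27 in silver and 8.29 in matured, so that the yellow library was highest and the silver lowest. Its silver level was 5.93-fold lower (4.99 to 7.09) than the yellow one, the only histone row called lower in that comparison, and its matured level was 1.94-fold higher (1.60 to 2.37) than the silver one. Row g18838 had 10.04, 5.01 and 3.70 CPM in the yellow, silver and matured libraries, a downward run, and g21654 had 7.71, 5.78 and 5.66 CPM. Without h1x, the H1 sum was 53.2 CPM in yellow, 23.1 in silver and 23.002 in matured, which was 2.30-fold lower (2.11 to 2.50) in silver than in yellow. With h1x the H1 sum was 1.24-fold higher (1.22 to 1.26) in silver than in yellow. The whole H1 sum of the matured library, 603 CPM against 659 CPM in yellow, gave a log2 ratio of -0.13 that became 0.14 with library totals alone and 0.12 with RPKM.

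Among the H2A rows, g1631 was the most abundant, with 2318 CPM in yellow, 2805 in silver and 1049.7 in matured. Silver was 1.21-fold higher (1.198 to 1.22) than yellow, and matured was 2.67-fold lower (2.64 to 2.71) than silver and 2.21-fold lower (2.18 to 2.24) than yellow. All of its reads aligned uniquely.

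In 3 H2A rows of moderate level yellow was on top. Row g35805 had 108 CPM in yellow, 29.2 in silver and 7.92 in matured, and g25786 had 40.4, 9.78 and 2.63 CPM. Both ran downward over the 3 libraries, and the matured values lay 13.6-fold (12.1 to 15.5) and 15.4-fold (12.4 to 19.2) below the yellow ones. In silver they lay 3.71-fold (3.46 to 3.98) and 4.13-fold (3.66 to 4.66) below yellow, which did not reach the 4-fold call on the scale with 1 CPM added. Row g44383 followed the same order at 49.7, 23.7 and 11.7 CPM in yellow, silver and matured, with a log2 ratio of -1.999 for matured against yellow that fell just short of the call.

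Rows g25363 and g22183 were steadier and highest in silver. They had 29.1 and 30.6 CPM in yellow, 40.9 and 39.96 in silver, and 20.03 and 29.04 in matured. Row g35643 was lowest in yellow, with 4.92 CPM, and had 8.88 in silver and 10.7 in matured. It was 2.17-fold higher (1.77 to 2.66) in matured than in yellow, one of 2 histone rows with their highest level in the matured library.

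Most H2B reads belonged to g1632, named h2b3, with 1639 CPM in yellow, 3149 in silver and 691 in matured. The silver library was highest, 1.92-fold above yellow (1.90 to 1.94), and the matured library lowest, 4.56-fold below silver (4.49 to 4.62) and 2.37-fold below yellow (2.34 to 2.41). The matured against silver log2 ratio of -2.19 was -1.85 with library totals alone and with RPKM, which did not meet the call. The identifier of g1632 follows directly on that of g1631, the leading H2A row. Per kilobase, g1632 was below g1631 in yellow, at 1601 against 2103 CPM, and in matured, at 675 against 953, and above it in silver, at 3075 against 2546.

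Smaller H2B rows divided into those highest in silver and those highest in yellow. Row g704 had 12.9 CPM in yellow, 40.5 in silver and 5.32 in matured, with silver clearly on top, and the matured level was 7.61-fold lower (6.53 to 8.92) than the silver one. Row g39968 had the same order at 11.1, 16.5 and 5.64 CPM. Row g39339 had 22.6 CPM in yellow, 21.5 in silver and 3.41 in matured, so that yellow and silver were close and matured alone was low, 6.31-fold below silver (5.19 to 7.72) and 6.64-fold below yellow (5.44 to 8.15).

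Yellow was highest in 4 further H2B rows. Of these, g21072 had 32.2, 10.4 and 7.08 CPM in yellow, silver and matured, g35920, named h2b1, had 22.1, 9.44 and 3.41 CPM, and g44382 had 10.1, 1.91 and 2.28 CPM. Matured was 4.55-fold lower (3.94 to 5.27) than yellow for g21072, a call lost with library totals alone, with RPKM and with the length trend removed, and 6.49-fold lower (5.32 to 7.98) for g35920. Silver was 5.28-fold lower (4.05 to 6.94) than yellow for g44382, a low-level row that did not reach the call after 1 CPM was added. The last of them, g37942, at 9.40, 6.36 and 1.18 CPM, was 7.93-fold lower (5.68 to 11.3) in matured than in yellow and was too low to be called.

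Rows named H3 were sparse and varied in order. Row g35642 had 21.6 CPM in yellow, 7.32 in silver and 8.29 in matured, with yellow alone high, and the silver level was 2.95-fold lower (2.55 to 3.42) than the yellow one. Row g25787 ran downward at 11.2, 7.95 and 5.29 CPM, while g44384 ran upward at 5.34, 7.32 and 11.2 CPM in yellow, silver and matured. For g44384 the matured level was 2.10-fold higher (1.73 to 2.56) than the yellow and 1.53-fold higher (1.31 to 1.79) than the silver level, and none of these rows was called. The H3 sum was 54.2 CPM in yellow, 36.8 in silver and 32.8 in matured. Its matured to silver log2 ratio of -0.17 became 0.17 with library totals alone and 0.21 with RPKM, so its direction depended on scaling.

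H4 rows showed the clearest silver peak, with 8 of the 10 rows highest in silver and 10 of 10 lower in matured than in silver. The lowest of these rows had 0.504 CPM in silver and 0.462 in matured. Its matured to silver ratio of 0.918 (0.441 to 1.88) does not settle an order. The H4 sum was 98.3 CPM in yellow, 266 in silver and 35.6 in matured, 2.70-fold higher (2.59 to 2.82) in silver than in yellow and 7.46-fold lower (7.03 to 7.92) in matured than in silver. Row g44494, named h48 after a chicken H4, had 41.2 CPM in yellow, 123 in silver and 3.87 in matured. The silver level was highest, 2.98-fold above yellow (2.79 to 3.18), and the matured level lay 31.7-fold under the silver (interval 26.7 to 37.9) and 10.6-fold under the yellow one (8.89 to 12.8). Without g44494 the matured to silver log2 ratios of the other 8 H4 rows with at least 1 CPM ranged from -2.97 to -1.13.

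The other called H4 rows had at most 10.95 CPM outside the silver library. Row g8213 had 8.12 CPM in yellow, 41.6 in silver and 4.42 in matured, 5.12-fold higher (4.44 to 5.94) in silver than in yellow and 9.41-fold lower (7.97 to 11.2) in matured than in silver. Row g18836 had 10.8, 48.9 and 10.95 CPM, 4.52-fold higher (3.99 to 5.14) in silver than in yellow and 4.47-fold lower (3.999 to 5.005) in matured than in silver, and its matured to yellow ratio was 1.01 (0.866 to 1.18). Of its reads 92.6% aligned uniquely. Its silver against yellow log2 ratio of 2.08 was 1.94 with RPKM and 1.90 with the length trend removed. With a pseudocount of 5 CPM that ratio was 1.77, and none of these alternatives met the call. Its matured against silver log2 ratio of -2.06 was -1.98 with unique reads alone, -1.91 with the length trend removed, -1.75 with library totals, -1.70 with RPKM and -1.76 with a pseudocount of 5 CPM, none of which met the call. The second h48 row, g38457, had the same order at a lower level, with 5.60, 13.4 and 4.05 CPM in yellow, silver and matured. Row g28475 was an exception, at 10.5, 6.42 and 2.40 CPM, with yellow highest.

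Copies of a core histone gene can be close in sequence, and reads can be shared between them. Of the 45 histone rows, 38 had at least 95% uniquely aligned reads, and the lowest share was 89.1%, in the H2A row g18097. In single libraries the lowest share was 75.8%, in the H2B row g30653 of the matured library. There were 6 histone rows with a longest transcript under 300 bases, which is shorter than the coding sequence of any core histone, among them g44494 with 204 bases and g35920 with 212. Such rows may be parts of genes. The rows ranged in length from 180 to 2429 bases. CPM sums, read shares and the 10 CPM limit are not corrected for length, and only values per kilobase are. Per kilobase, g44494 had 602 CPM in silver, the highest H4 value and close to the 597 CPM per kilobase of h1x in the same library.

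Many histone rows carry consecutive gene identifiers. There were 11 runs of 2 or 3 consecutive identifiers, holding 27 of the 45 rows, and 10 of the runs joined rows of different classes only. The table gives no positions, so consecutive identifiers do not show that the genes are neighbours. In 5 of 11 runs all rows had the same highest library. Counting error leaves some of these orders unsettled. In runs scored as differing, the silver to yellow ratio was 0.972 (0.820 to 1.15) for g705 and 1.08 (0.658 to 1.81) for g18098, and g13938 had 2 reads over all libraries. In a run scored as agreeing, g8214 had at most 0.345 CPM. In other such runs the silver to yellow ratio was 0.974 (0.764 to 1.246) for g21071 and 1.19 (0.952 to 1.498) for g22182. For g25785, also in an agreeing run, that ratio was 0.929 (0.691 to 1.254). Among the agreeing runs, only that of g1631 and g1632 had no row with an unsettled order. The share of runs that would agree among unrelated rows was not counted, so the count is not read as a result. In the run of g1631 (H2A) and g1632 (H2B) both peaked in silver. In the run of g18836 (H4), g18837 (H3) and g18838 (H1), silver was 4.52-fold higher than yellow in the H4 row and 1.05-fold higher (0.825 to 1.34) in the H3 row, and was 2.003-fold lower (1.66 to 2.43) in the H1 row. In the run of g44382 (H2B), g44383 (H2A) and g44384 (H3), yellow was highest in the first pair and matured in the H3 row.

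**Figure D4:**
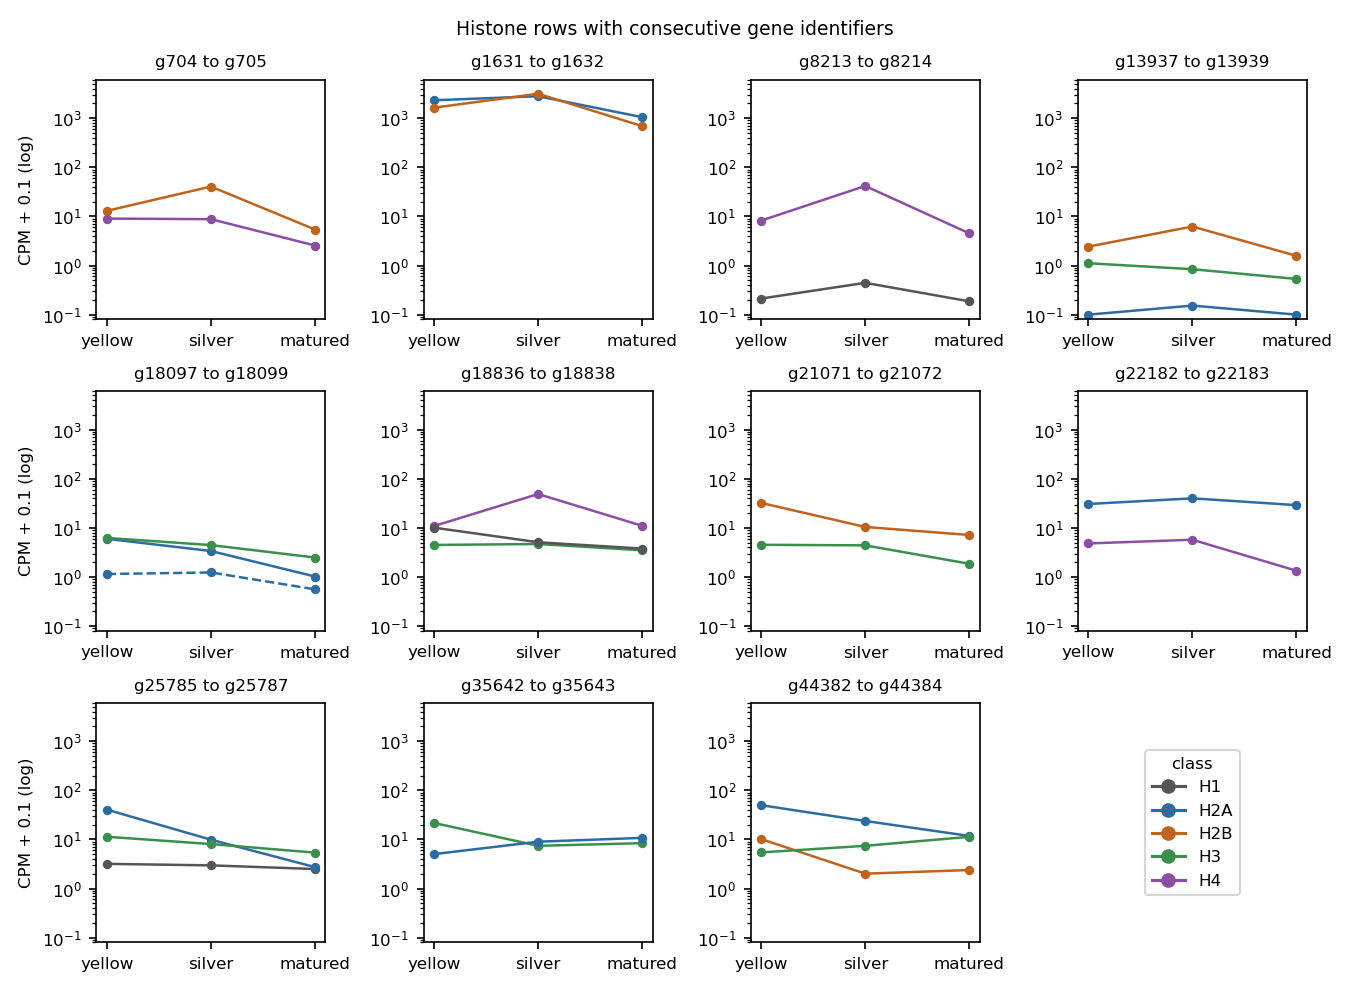
CPM + 0.1 (log axis) in the yellow, silver and matured libraries for the 11 runs of histone rows with consecutive identifiers, coloured by class, with the second H2A row of its run, g18098, dashed. The g1631 to g1632 run lies at about 1000 CPM or above in most points, and the lines of a run cross or diverge in several panels, as in g44382 to g44384.

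The 4 rows that are not histone proteins were all higher in matured than in silver, and 3 of them higher in matured than in yellow. The hinfp row g10592 had 180 CPM in yellow, 166 in silver and 215 in matured, and the second hinfp row, g22874, had 23.1, 16.1 and 31.8 CPM. The mysm1 row g15267 had 35.4, 36.4 and 42.8 CPM, with matured highest in each of these 3 rows. The second mysm1 row, g42982, had 3.08, 1.35 and 2.66 CPM and was highest in yellow. The sum of the 4 rows was 293 CPM in matured against 220 CPM in silver, 1.33-fold higher (1.29 to 1.37), and none was called.

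The histone rows that the rule passed over were recognised from their best protein hits after the table had been seen. They include transcripts as abundant as any in the rule. Row g1568, named b4 after the linker histone of frog oocytes and early embryos, had 1853 CPM in yellow, 4602 in silver and 1122 in matured. It was 2.48-fold higher (2.46 to 2.51) in silver than in yellow and 4.10-fold lower (4.06 to 4.15) in matured than in silver. Per kilobase it exceeded h1x in each library, at 1543, 3832 and 934 CPM per kilobase in yellow, silver and matured against 456, 597 and 437.

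A group of 5 rows was named h33, the H3 variant deposited outside replication, and together had 613 CPM in yellow, 2181 in silver and 809 in matured. Per kilobase that is 619, 2138 and 707, against 71.8, 47.9 and 44.1 for the rows named H3. The short h33 row g39020, of 250 bases, supplied 246, 594 and 188 of these CPM per kilobase in yellow, silver and matured. It had 61.4, 149 and 47.0 CPM and was 2.42-fold higher (2.29 to 2.56) in silver than in yellow. The h33 row g8182 had 304 CPM in yellow, 1495 in silver and 427 in matured, and g2987 had 69.4, 312 and 99.2 CPM. Silver was highest in both, 4.91-fold (4.80 to 5.03) and 4.50-fold (4.28 to 4.73) above yellow, and both were called. Row g21782 had 156, 204 and 215 CPM and g23367 had 21.8, 21.9 and 21.5 CPM, so the silver peak was not shared by all h33 rows.

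H2A variants differed from each other. The h2az row g17105, a variant placed at promoters, had 311 CPM in yellow, 855 in silver and 189 in matured, and was 4.51-fold lower (4.40 to 4.64) in matured than in silver. Of the h2av rows, g27072 was level at 93.2, 99.1 and 95.04 CPM. The h2av row g15517 ran downward at 65.7, 44.6 and 35.1 CPM in yellow, silver and matured, 1.87-fold lower (1.74 to 2.02) in matured than in yellow. The h2ax rows, a variant phosphorylated at DNA breaks, summed to 36.3, 35.5 and 18.7 CPM, and the macroH2A rows to 42.3, 56.1 and 38.7 CPM. A further h2b3 row, g1271, had 232, 521 and 144 CPM in yellow, silver and matured. The h10 row g2996, a linker histone of non-dividing cells in mammals, had 2.18, 5.89 and 17.9 CPM and was highest in matured, 8.22-fold above yellow (6.27 to 10.9) and 3.04-fold above silver (2.61 to 3.56). Of the 20 rows passed over, 13 were highest in silver. That count takes in rows averaging under 1 CPM, and this order was not counted over all genes, so it is not read as a result. Over the 15 with at least 1 CPM, the median log2 ratio was 0.65 in silver against yellow with 13 above 0, and -0.57 in matured against silver with 2 above 0.

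Lists of genes that act on histones or in DNA replication had medians nearer 0 in matured against silver than the histone rows. The list for histone mRNA synthesis and processing had 20 rows. None was called, of 15 that could be in silver against yellow, 15 in matured against silver and 16 in matured against yellow. Over all genes, 1.43% to 4.61% were called in each direction of a comparison. The list had a median log2 ratio of -0.47 in silver against yellow and 0.25 in matured against silver. Its sum was nevertheless lower in matured (788 CPM) than in silver (1047 CPM). In it slbp (g28259), the protein that binds the histone stem-loop, had 35.7, 52.98 and 21.04 CPM in yellow, silver and matured, and c8ap2, a factor of histone mRNA processing, had 172, 340.3 and 131 CPM. Both were highest in silver and lowest in matured. The U7 snRNP protein lsm11 had 52.6, 45.3 and 21.7 CPM, and the cleavage factor cstf2 (g6638) had 17.1, 23.7 and 46.3 CPM and was highest in matured.

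Histone chaperones numbered 65 rows. Over the 59 with at least 1 CPM, medians were -0.42 in silver against yellow and -0.03 in matured against silver. The sum of the list was nevertheless lower in matured (3283 CPM) than in silver (4381 CPM) and in yellow (5061 CPM). None was called, of 42 rows that could be in silver against yellow, 39 in matured against silver and 42 in matured against yellow. All genes had the shares of 1.43% to 4.61% given above. The H3-H4 chaperone as1ba had 106 CPM in yellow, 266 in silver and 75.2 in matured, with the same order as the H4 sum. The nucleoplasmin-family row npm (g13663) had 617, 279.6 and 186 CPM and was highest in yellow. The acetyltransferase of new H4, hat1 (g20909), had 33.7, 64.7 and 20.8 CPM, and ubn2 (g11398), a partner of the H3.3 chaperone HIRA, had 17.3, 8.11 and 27.6 CPM.

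The replication and S phase list had 69 rows, with medians of -0.04 in silver against yellow and 0.17 in matured against silver over 65 rows, while its sum was lower in matured (5455 CPM) than in silver (9057 CPM). Of 49 rows that could be called, 1 was called higher in silver than in yellow, beside 3.69% of genes. It was the ribonucleotide reductase subunit rir2 (g12220), with 173, 1237 and 84.4 CPM in yellow, silver and matured. That row and the licensing inhibitor gemi, with 424, 688 and 97.9 CPM, were the ones called lower in matured than in silver. For that comparison 50 rows could be called, and 4.61% of genes were called lower. The polymerase row dpoe1 (g28980) had 2.71, 6.34 and 16.6 CPM and was called higher in matured than in yellow, where gemi was called lower. There 51 rows could be called, and 3.39% of genes were called higher and 2.59% lower. Cyclin A2, ccna2, had 898, 2212 and 695 CPM. Markers of dividing cells, 16 rows, summed to 10435 CPM in yellow, 9644 in silver and 3388 in matured. Their medians were -0.03 in silver against yellow and -0.81 in matured against silver. Of 13 that could be called, 1 was called lower in matured than in silver, beside 4.61% of genes. Against yellow, 2 of 13 were called lower, beside 2.59% of genes. The part of dividing cells in the histone values was not tested.

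**Figure D5:**
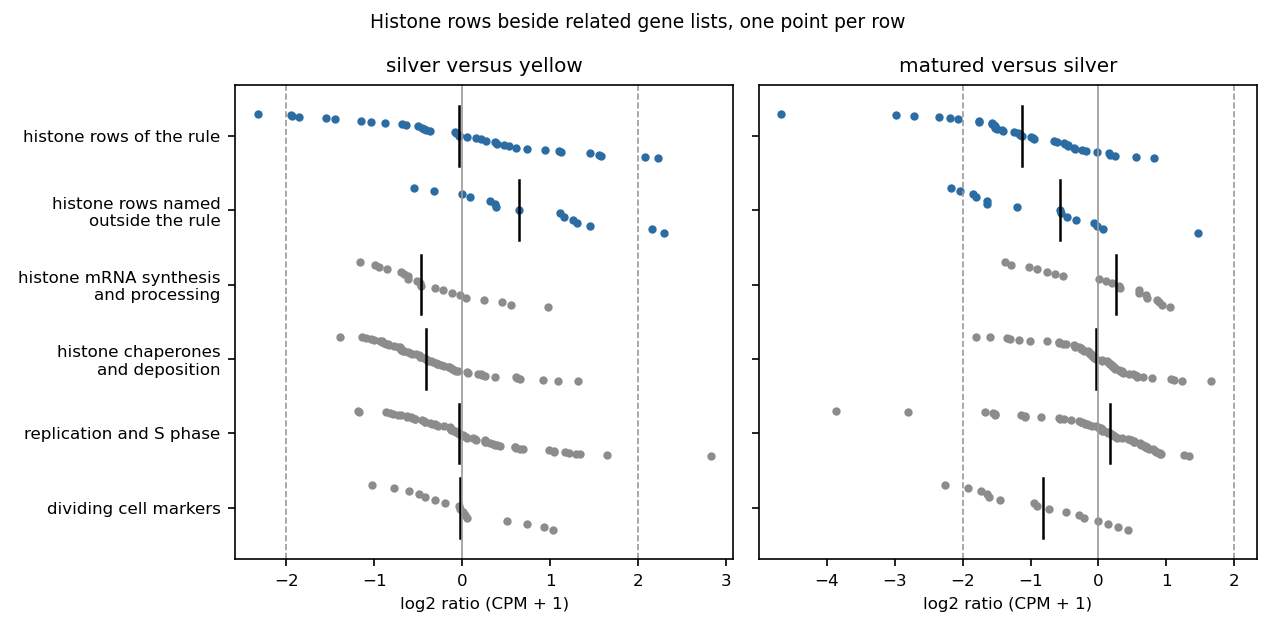
Log2 ratio of CPM + 1, one point per row with at least 1 CPM on average, in silver versus yellow and matured versus silver, for the histone protein rows of the rule, the histone rows passed over by it, and the related lists. Short black lines are medians and dashed lines mark 4-fold. In matured versus silver the 39 histone protein rows of the rule, plotted without hinfp and mysm1, have a median of -1.13, below those of the related lists, which lie between -0.81 and 0.25.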

How the data were processed

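Ovary RNA of 1 yellow, 1 silver and 1 matured eel was sequenced, and the histone rows, gene lists and markers were chosen with earlier results of these data known. Gene models came from Augustus and their names from best protein hits in Blast2GO, and CLC bio software did the alignment and counting, per the file headers. The deposited read counts per gene include shared alignments that this software distributed between genes, and a second set of counts holds unique alignments. Per the file headers, the authors' RPKM values are these counts over the library total and the length of the longest transcript. The deposited fold ratios and adjusted p-values came from DESeq without replicates, per the file headers. CASAVA, HTSeq, TopHat2 2.0.5 and SAMtools 0.1.18 are named too, with no role, per the submitters' processing notes. Build: not given in the sources used here. A last line without a gene, holding column totals, was left out.

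Counts were scaled by TMM factors (edgeR 4.0.16, R 4.3.3) and ratios taken as log2 of CPM + 1. Intervals are exact: Poisson for levels, and binomial given both counts for folds (scipy 1.17.1, Python 3.11.15). Reads are not independent molecules, so both cover counting error alone. Medians use genes averaging at least 1 CPM. No test between stages was made, because each has 1 library. Rows described singly are those called, those reaching 10 CPM in a library, and the 3 highest per kilobase in each class (the second mysm1 row, below these limits, is added after its values were seen); from other lists, called genes and up to 4 with the largest ratio and at least 10 CPM. Rows outside these limits are named for their lowest unique share, their run of identifiers or their place next to the call, and were picked after their values were seen, as were the genes named among the histones passed over by the rule. Alternatives were DESeq2 1.42.0 size factors, library totals, unique reads, RPKM, pseudocounts of 0.1 and 5 CPM, removal of a length trend, a 2-fold threshold and other minimums. The scripts were tested on simulated data.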

Additional observations from a re-analysis of the deposited data

How the results depend on the processing

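Each stage had 1 library, so no library could be left out. No paired analysis was possible because each stage has 1 library and 1 replicate. Counts of called rows moved beyond 1.5 times as follows. In silver versus yellow, rows called higher numbered 2, against 1 with RPKM, 1 with the length trend removed, 0 with a pseudocount of 5 CPM, 5 at 2-fold and 4 with the histone rows outside the rule added, an alternative chosen after seeing the data. Rows called lower numbered 1, against 3 with RPKM, 3 with a pseudocount of 0.1 CPM, 0 with 5 CPM and 8 at 2-fold. In matured versus silver, 6 rows were called lower, against 10 at 2-fold. In matured versus yellow, 6 were called lower, against 3 with a pseudocount of 5 CPM and 15 at 2-fold, and 1 row was called higher with the rows outside the rule, against 0 without. The median of matured versus silver, -0.96, was -0.67 with library totals, -0.68 with RPKM, -0.48 with a pseudocount of 5 CPM, -0.61 with no minimum and -1.20 with a minimum of 10 CPM. The silver versus yellow median, -0.04, turned to 0.04 with no minimum and to 0.12 with the rows outside the rule, and otherwise lay between -0.15 and -0.02. The matured versus yellow median, -0.98, lay between -1.19 and -0.60 over its alternatives. With a pseudocount of 5 CPM, g18836 and g39339 lost their calls in matured versus silver, and g21072, g35920 and g39339 theirs in matured versus yellow. The log2 ratio of the histone protein sums, recomputed in alternatives chosen after seeing the data, was 0.51 for silver versus yellow, against 0.53 with DESeq2 size factors, 0.44 with library totals, 0.45 with RPKM and -0.0057 without the 3 rows with the most reads. For matured versus silver it was -1.54, against -1.59, -1.20, -1.33 and -1.53 in the same order, and for matured versus yellow -1.03, against -1.06, -0.77, -0.88 and -1.53. Library totals moved the median of all genes to 0.25 in matured versus silver and 0.18 in matured versus yellow. Of the 29 rows described singly, at most 2 changed sign under any alternative in any comparison, all with a log2 ratio within 0.07 of 0. Causes were not tested. The 21 rows that never reached 10 CPM could not be called at this depth.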
